A study of Mus musculus with 42 samples.

Results

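The TruSeq libraries made from 4 ng and from 70 ng of ribosome-bound RNA are described here, 6 of the 42 libraries of the series. The RNA came from the liver of 3 untreated Gfi1Cre/+;Rpl22HA/HA mice, and every mouse carried both alleles, so that no group lacked them. The labels call the animals neonatal pups of day 1 in the stage field, whereas their protocols and the study's methods give day 30. No result below uses the age. In these RiboTag mice, a ribosomal protein gains an HA tag in cells that have expressed Cre and in their progeny, and an antibody against HA brings down the tagged ribosomes with the mRNA they carry (IP). Which liver cells carry the tag was set by the Gfi1-Cre allele, and no sort of cells preceded the IP. RNA of the whole homogenate (input) was made into libraries in the same way and is used here for comparison, with 3 libraries at each amount.

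Aliquots of the RNA of each mouse went into both amounts, so the libraries form 3 pairs by replicate number. The 4 ng IP group held the libraries labelled IP replicates 1 and 2 and the library labelled input replicate 3. The fractions of replicate 3 were exchanged because the feature numbers that the study tabulates stand the other way round. In the exchanged library the hemoglobin genes took 12.9% of the counts and the Kupffer cell markers summed to at least 19211 CPM (counts scaled to a common library total), as in the other IP libraries. In the 6 input libraries, with replicate 3 exchanged, the Kupffer cell markers summed to 486 to 563 CPM. With replicate 3 as labelled, 0 genes passed the test below, and 657 had an unadjusted p under 0.05, whereas without replicate 3 altogether 546 passed.

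Both amounts used the TruSeq v2 kit, in which beads with oligo(dT) pull out RNA with a poly(A) tail before it is broken up, copied into cDNA, ligated to adapters and amplified. The kit does not mark the strand, so reads from a gene and from an antisense gene that overlaps it cannot be told apart. RNA without a poly(A) tail, such as ribosomal RNA, should largely be washed away, and what is left of it in a library varies with the selection. The 4 ng libraries also had a smaller end-repair reaction, no size selection and more PCR cycles, where the 70 ng libraries were selected for size with SPRIselect beads. The amount of RNA and these steps cannot be told apart.

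A family of short annotated genes carried some of the most certain changes, and its sequences are shown because the genes are nearly the same sequence in different places. GENCODE annotates each as a miRNA of 56 or 57 bases on GRCm38, and none has an entry in the RefSeq miRNA table. A stretch of this kind is known from the 28S rRNA of the large ribosomal subunit, which was not compared here. Capitals mark the bases of Gm25911 and Gm24187 that differ from Gm24270, counted from 1 at the 5′ end, which are G14A and G11A. Gm25911 also lacks 1 base that Gm24270 has.
Gm24270, chr9:56223715-56223771, minus strand: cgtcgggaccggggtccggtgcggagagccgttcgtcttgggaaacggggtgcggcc
Gm25911, chr1:167340369-167340424, minus strand: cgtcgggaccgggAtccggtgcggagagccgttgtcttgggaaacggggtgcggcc
Gm24187, chr13:9834469-9834525, minus strand: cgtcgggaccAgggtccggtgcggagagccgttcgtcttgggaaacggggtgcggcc
Gm23935, at chr16:11144125-11144181 on the plus strand, holds the same 57 bases as Gm24270, and their GC content is 73.7%. Reads of the identical copies cannot be assigned to 1 of them with certainty, so the sum over the family is the safer value.

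The totals of exon counts were 18031264 to 36785680 with 4 ng and 27902766 to 31150532 with 70 ng, so that 3 counts stood for 0.0816 to 0.166 CPM. Reads on no annotated feature made up 14.6%, 7.63% and 9.42% of the reads with 4 ng and 7.92%, 4.65% and 5.31% with 70 ng, more with 4 ng in each pair. Clec4f, Timd4 and the other 10 Kupffer cell markers were all read in the IP libraries, and their sum of 19211 to 27502 CPM with 4 ng overlapped that of 19930 to 29379 CPM with 70 ng. The 8 hemoglobin genes took 20.9%, 14.3% and 12.9% of the counts with 4 ng and 22.6%, 16.2% and 12.9% with 70 ng. Gfi1 itself lay between 0 and 1.33 CPM, and Rpl22, the tagged gene, between 67.4 and 150 CPM, with a log2 difference of -0.22 ± 0.11 (SE) that did not pass the test. Both libraries of a pair were made from the RNA of the same mouse, so the cells behind them were the same.

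Of 15304 genes tested, 772 rose with 4 ng (5.04%) and 745 fell (4.87%), which makes 9.91% in either direction at an adjusted p under 0.05 by edgeR's quasi-likelihood test with the pair as block. Without replicate 3, the count was 546 (3.57%, with 1.88% higher and 1.69% lower), of which 541 were among the 1517. Without replicate 1 it was 1014 (6.39%, with 3.35% higher and 3.04% lower). Without the block it was 6 (0.0392%), all of them higher with 4 ng, and 1536 genes had an unadjusted p under 0.05. With DESeq2 size factors in the same test, the split turned to 698 higher (4.56%) and 864 lower (5.65%). The changes were small for genes with more than a few reads. Of the 10957 genes with at least 5 CPM on average, 95.3% lay within 2-fold of the 70 ng level, and tested against a change of 1.5-fold, 65 genes (0.425%) passed. Among the genes that rose, the median log2 difference was 0.75, and 196 of 772 differed by at least 1. Among those that fell it was -0.56, and 53 of 745 differed by at least 1. The 3 libraries of one amount lay wholly apart from those of the other for 484 of the genes that rose and 393 of those that fell, and for 2525 (16.5%) of all tested genes. Together the genes that rose took 179182 CPM with 4 ng against 111261 CPM with 70 ng, and those that fell took 312203 against 382167 CPM.

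**Figure D1:**
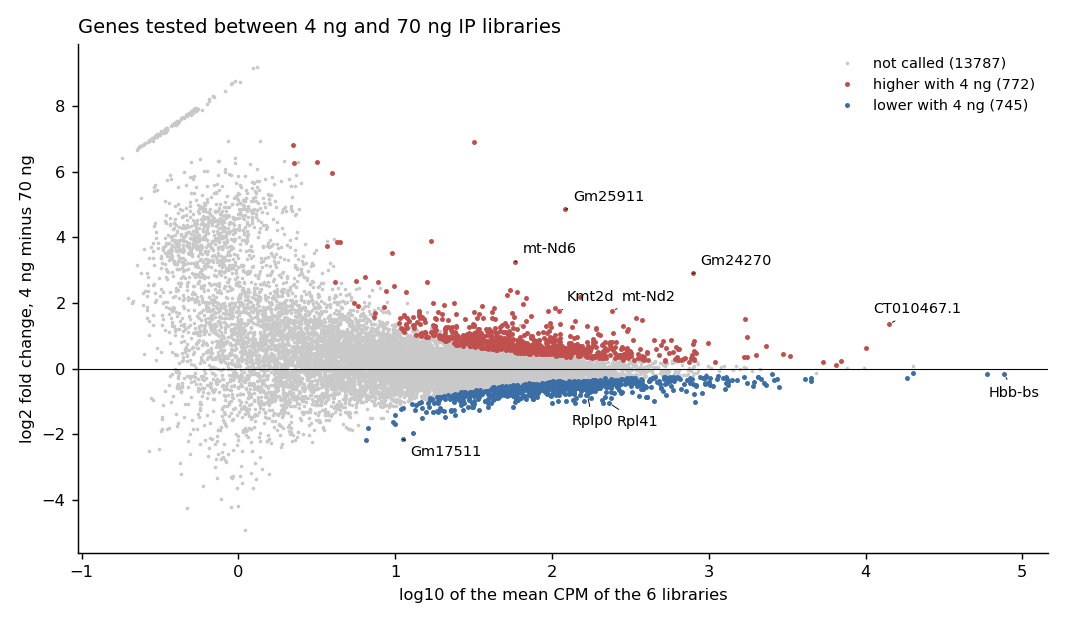
Log2 difference between 4 ng and 70 ng IP libraries (vertical axis) against the log10 of the mean CPM of the 6 libraries (horizontal axis), 1 point per gene tested. Of the genes, 772 that rose are red, 745 that fell blue and 13787 that did not pass grey. The slanted line of grey points at the upper left holds genes with no read in the 70 ng libraries, whose log2 difference depends on the prior count.

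Protein-coding genes took 91.4%, 95.4% and 94.8% of the counts with 4 ng and 94.4%, 96.0% and 95.6% with 70 ng, a difference of -1.45 ± 1.32 percentage points (SD, n = 3 pairs). Over a total without mitochondrial DNA, globin and rRNA genes, the difference was -0.153 ± 0.499 percentage points (SD, n = 3 pairs). Ribosomal RNA was among the classes that took more. CT010467.1, an rRNA gene at chr17:39846353-39848827 on the minus strand, had 36670, 11031 and 14512 CPM in the 4 ng libraries of mice 1, 2 and 3 and 12367, 4776 and 5623 CPM in their 70 ng libraries. Each 4 ng library was far above its partner, while mouse 1 was above mice 2 and 3 at both amounts, so that the groups overlapped. The log2 difference was 1.36 ± 0.05 (SE, n = 3 pairs; edgeR adjusted p = 1.63e-08). CT010467.1 was the only gene with the biotype rRNA that had enough reads to be tested, of 24 with any read, and it overlaps Gm42418 on the opposite strand. The call stood without each replicate in turn. The share of all rRNA genes was 3.67%, 1.10% and 1.45% of the counts with 4 ng against 1.24%, 0.478% and 0.562% with 70 ng. It was higher in 3 of 3 pairs, for which the exact permutation test over the signs of 3 pairs gives p = 0.25, the smallest it can give. This limit of 0.25 holds for every share below.

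The short genes with the printed sequences rose further. Gm24270 had 2363, 911 and 858 CPM with 4 ng and 391, 91.4 and 118 CPM with 70 ng. All 3 of its 4 ng libraries were above all 3 of its 70 ng libraries, and the log2 difference was 2.90 ± 0.10 (SE, edgeR adjusted p = 5.63e-09). Gm25911 had 386, 155 and 163 CPM against 19.1, 6.38 and 2.697 CPM, with a log2 difference of 4.85 ± 0.24 (SE). Summed over the 6 genes of the family, the counts were 8309, 2403 and 2511 CPM with 4 ng and 1742, 527 and 890 CPM with 70 ng, which is 4.77, 4.56 and 2.82 times as much in the 3 pairs. Gm23935 and Gm24187, named after their values were seen, had log2 differences of 1.52 and 1.86. The sum also holds Gm24245 and Gm23388, likewise named after their values were seen. Gm24245 is identical to Gm24270 and did not pass (edgeR adjusted p = 0.42), and Gm23388, which differs from it at 4 bases, had too few reads to be tested. Of the 15 tested genes annotated as miRNA, 6 rose and 0 fell, with a median log2 difference of 1.52 where that of all tested genes was 0.11. The 6 are 40% of the 15, where 5.04% of all tested genes rose. They include Gm24270, Gm25911, Gm23935 and Gm24187, whose sequences are nearly the same, so these are not separate results.

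Lars2, a mitochondrial leucyl-tRNA synthetase whose mouse gene is known to contain a stretch like rRNA, had 26778, 4910 and 6935 CPM with 4 ng and 13827, 3691 and 4611 CPM with 70 ng. The level in mouse 1 was a multiple of that in the other mice at both amounts, and the log2 difference over the pairs was 0.63 ± 0.07 (SE, edgeR adjusted p = 0.000179). Gm15564, which was named after its values were seen, had 5157, 868 and 1221 CPM against 2125, 507 and 631 CPM, with a log2 difference of 0.98 ± 0.08 (SE). Both genes were highest in mouse 1 at both amounts, as the rRNA gene was. This likeness over so few mice was not tested, and reads shared with rRNA were not measured.

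Other RNAs that lack a poly(A) tail, or end without an ordinary one, gave mixed values. Rpph1, the RNA of ribonuclease P, had 55.2, 13.8 and 15.1 CPM with 4 ng and 9.75, 6.54 and 6.90 CPM with 70 ng. Its groups did not overlap, and it rose by 1.55 ± 0.32 (SE, log2, edgeR adjusted p = 0.00734). Rn7sk, an inhibitor of transcription elongation, had a log2 difference of 0.64 ± 0.32 (SE) and did not pass (edgeR adjusted p = 0.277). Of the 18 replication-dependent histone genes tested, whose mRNA ends in a stem-loop, 0 passed. Their median log2 difference of 2.17 came from genes with few reads, since over the 5 members with at least 5 CPM it was -0.15. Malat1, a nuclear long noncoding RNA, had 113, 205 and 534 CPM with 4 ng against 82.2, 85.5 and 125 CPM with 70 ng and rose by 1.25 ± 0.21 (SE, log2, edgeR adjusted p = 0.00245). The size of its difference varied more between mice than that of CT010467.1. Without replicate 1, Rpph1 did not pass (edgeR adjusted p = 0.105). Malat1 is the 1 of 6 tested nuclear long noncoding RNAs of the list that passed.

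**Figure D2:**
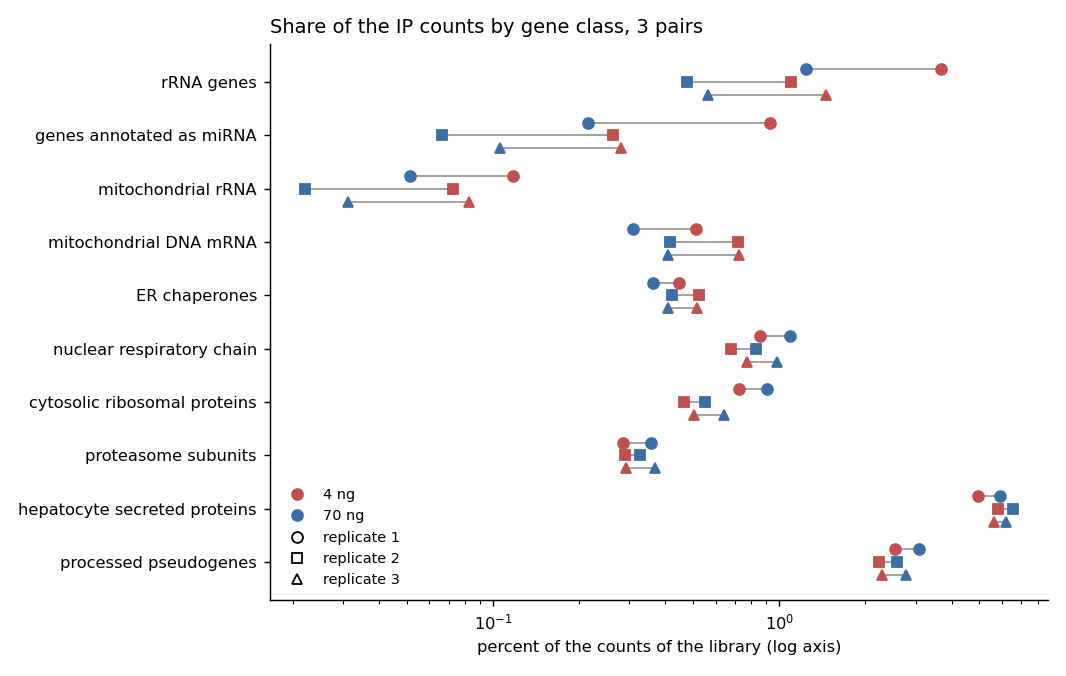
Percent of the counts of each library (horizontal log axis) taken by 10 gene classes, with 4 ng in red and 70 ng in blue and a line joining the libraries of one mouse. The 5 upper classes were higher with 4 ng in 3 of 3 pairs, as for rRNA genes at 3.67% against 1.24% in replicate 1, and the 5 lower classes were lower in 3 of 3 pairs.

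The 2 genomes that together build the respiratory chain moved in opposite directions. Mitochondrial DNA codes for core subunits of the chain and of ATP synthase, while most subunits come from nuclear genes. The 13 mitochondrial mRNA genes took 0.514%, 0.717% and 0.721% of the counts with 4 ng and 0.309%, 0.417% and 0.409% with 70 ng. The nuclear-encoded subunits took 0.859%, 0.677% and 0.769% with 4 ng and 1.09%, 0.833% and 0.980% with 70 ng. The first share was higher and the second lower with 4 ng in 3 of 3 pairs.

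All 7 mitochondrial mRNA genes that could be tested rose, with a median log2 difference of 0.79, where 5.04% of all tested genes rose. The other 6, which are mt-Co2, mt-Atp8, mt-Atp6, mt-Co3, mt-Nd3 and mt-Nd4l, had 0 exon counts in all 6 libraries, although the deposited RPKM values for them were above 0. Of these 6, 5 share 98.2% to 99.9% of their 20-base words with a nuclear copy on chromosome 1, and mt-Atp8 shares 12.97%. Among the 7 with counts, the share was 0% to 63.1%. Reads that fit 2 places are often left out of gene counts, and whether this emptied the 6 genes was not tested.

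mt-Nd6, a complex I subunit and the one mRNA of the list on the other strand of the mitochondrial DNA, had 76.9, 117 and 124 CPM with 4 ng and 9.03, 12.7 and 10.7 CPM with 70 ng. The groups lay wide apart, and the log2 difference of 3.26 ± 0.17 (SE, edgeR adjusted p = 1.15e-07) was among the 5 largest of the protein-coding genes of at least 5 CPM that passed. Its annotated end overlaps 14 bases of mt-Nd5, and transcripts from the opposite strand would be counted here too. mt-Nd2 had 344, 405 and 375 CPM against 100, 117 and 107 CPM and rose by 1.77 ± 0.09 (SE, log2), with no overlap between groups. mt-Nd1, the member with the most counts, had 2068, 3239 and 3305 CPM against 1428, 1922 and 1884 CPM and rose by 0.68 ± 0.05 (SE, log2). mt-Co1, a core subunit of complex IV, rose by 0.55 ± 0.06 (SE, log2). mt-Nd5, mt-Nd4 and mt-Cytb, which the naming rule did not pick, rose by 1.40, 0.79 and 0.60 (log2). All 7 also rose without replicate 1, 2 or 3 in turn. Both mitochondrial rRNAs rose, mt-Rnr1 by 1.30 ± 0.12 and mt-Rnr2 by 1.54 ± 0.08 (SE, log2). They are not translated but are part of the ribosome inside mitochondria. That ribosome translates the mitochondrial mRNAs, whereas the HA tag is on cytosolic ribosomes.

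Of 78 nuclear-encoded respiratory chain genes tested, 0 rose and 26 fell (33.3%), with a median log2 difference of -0.21, where 4.87% of all tested genes fell. The median longest transcript of the list is 1025.5 bases. Among all protein-coding genes of at least 5 CPM, 24.1% of those of 0.5 to 1 kb fell and 13.4% of those of 1 to 2 kb. Uqcrq, a small subunit of complex III, had 200, 96.7 and 121 CPM with 4 ng and 407, 197 and 245 CPM with 70 ng. In each mouse the 70 ng level was about 2 times the 4 ng level, and the log2 difference was -1.05 ± 0.09 (SE, edgeR adjusted p = 1.22e-05). Ndufs7, an iron-sulfur subunit of complex I, had 109, 66.7 and 96.5 CPM against 264, 113 and 195 CPM, a log2 difference of -1.04 ± 0.11 (SE). By complex, 12 of 35 tested members of complex I fell, 3 of 4 of complex II, 5 of 8 of complex III, 5 of 14 of complex IV and 1 of 17 of ATP synthase. The median was furthest from 0 for complex III, at -0.49, and closest for ATP synthase, at -0.07. No difference between complexes was tested. Without replicate 3, 11 of the 78 fell and 0 rose.

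Ribosomal protein mRNAs, which are short and carry a terminal oligopyrimidine tract at the start, mostly fell where they passed. Of 76 tested, 2 rose (2.63%) and 17 fell (22.4%), where 5.04% of all tested genes rose and 4.87% fell. The falls were 11 of 44 of the large subunit and 6 of 30 of the small subunit, and the median log2 difference of the list was -0.19. Rpl8 had 637, 457 and 492 CPM with 4 ng and 1009, 693 and 726 CPM with 70 ng. Its groups did not overlap, and it fell by 0.63 on the log2 scale (SE 0.06, edgeR adjusted p = 5.67e-05). Rpl41, which codes for one of the smallest known proteins, had 289, 79.0 and 104 CPM against 525, 184 and 208 CPM, with a log2 difference of -1.05 ± 0.10 (SE). Here mouse 1 stood above the others at both amounts and the groups overlapped. Rplp0, a stalk protein often used as a reference, had a log2 difference of -0.80 ± 0.10 (SE), and Rpl36 one of -1.26 ± 0.23 (SE). The 2 members that rose, named after their values were seen, were Rpl4 at 0.72 ± 0.08 and Rps2 at 0.47 ± 0.12 (SE, log2). Without replicate 3, 1 rose and 11 fell, and Rpl36 and Rps2 no longer passed (edgeR adjusted p = 0.058 and 0.157). Without replicate 1, Rps2 did not pass either (edgeR adjusted p = 0.128). Many ribosomal protein genes have near-identical pseudogenes, so their counts depend on how shared reads were treated.

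Processed pseudogenes passed in both directions. Of 1146 processed pseudogenes tested, 15 rose (1.31%) and 80 fell (6.98%), where 5.04% of all tested genes rose and 4.87% fell. The median log2 difference of the class was 0.09. Over its 518 members with at least 5 CPM the median was -0.20, with 13 higher and 80 lower. Over all genes of at least 5 CPM the median was 0.02, and 6.80% fell. Of the processed pseudogenes named as those of ribosomal proteins, 18 fell and 1 rose. The 1 that rose was Rps25-ps1, named after its values were seen, with a log2 difference of 0.89 ± 0.16 (SE). All processed pseudogenes together took 2.54%, 2.24% and 2.29% of the counts with 4 ng and 3.07%, 2.57% and 2.76% with 70 ng. Rps15a-ps3 had 4.66, 1.33 and 1.85 CPM against 12.8, 6.71 and 11.7 CPM, with a log2 difference of -2.17 ± 0.51 (SE). Rpl17-ps10 and Rpsa-ps4 had log2 differences of -1.81 ± 0.53 and -1.51 ± 0.30 (SE). Gm6681 and Gm12164 were processed pseudogenes that rose, by 6.31 ± 1.23 and 3.896 ± 0.31 (SE, log2). Gm12164 had 23.9, 30.5 and 39.9 CPM with 4 ng and at most 3.18 CPM with 70 ng. Without replicate 3, 4 rose and 31 fell, and Rps15a-ps3, Rpl17-ps10 and Rpsa-ps4 did not pass (edgeR adjusted p = 0.0732 to 0.168), nor did Rps25-ps1 (edgeR adjusted p = 0.0661). Rpl17-ps10 also failed without replicate 1 or 2, and Gm6681 without replicate 1 (edgeR adjusted p = 0.0601).

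The proteasome, the large protease that degrades ubiquitin-tagged proteins, showed the same direction. Of its 38 genes tested, 1 rose (2.63%) and 11 fell (28.9%), with a median log2 difference of -0.28, where 5.04% of all tested genes rose and 4.87% fell. The class took 0.286%, 0.290% and 0.291% of the counts with 4 ng and 0.355%, 0.327% and 0.368% with 70 ng, and its groups did not overlap. Psmb8, a catalytic subunit of the immunoproteasome, had 113, 104 and 109 CPM against 168, 150 and 165 CPM, with a log2 difference of -0.59 ± 0.10 (SE, edgeR adjusted p = 0.00245). It overlaps Gm20496 on the opposite strand. Psmd11, a subunit of the lid of the regulatory particle, was the 1 gene that rose, by 0.97 ± 0.19 (SE, log2), and its longest transcript has a GC content of 39.9%. Without replicate 3, 0 rose and 4 fell, and without replicate 1, 1 rose and 6 fell.

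Most of the plasma protein mRNAs that passed the test fell. The 19 hepatocyte secreted protein genes took 4.94%, 5.80% and 5.65% of the counts with 4 ng and 5.92%, 6.55% and 6.19% with 70 ng. Of them 2 rose (10.5%) and 13 fell (68.4%), with a median of -0.27, where 5.04% of all tested genes rose and 4.87% fell. Fgb, the beta chain of fibrinogen, had 962, 795 and 813 CPM against 1379, 1068 and 1109 CPM and fell by 0.49 on the log2 scale (SE 0.06). Fga, the alpha chain, which the naming rule did not pick, had 765, 916 and 996 CPM against 591, 697 and 849 CPM and rose by 0.31 ± 0.06 (SE, log2). The 2 chains of one protein thus passed in opposite directions. Hp, the hemoglobin-binding haptoglobin, had a log2 difference of -0.46 ± 0.07 (SE), Apoe one of -0.28 ± 0.03 and Apoa2 one of -0.24 ± 0.05 (SE). Apob, with the longest mRNA of the list, rose by 0.22 ± 0.06 (SE, log2), but did not pass with any of the 3 replicates left out (edgeR adjusted p = 0.114 to 0.146) or with DESeq2 size factors. Without replicate 1 or replicate 3, 1 rose and 9 fell. Among hemoglobins, Hbb-bs and Hba-a2 fell by 0.17 and 0.15 on the log2 scale, the latter from 79295, 60262 and 46704 CPM with 70 ng to 74495, 49632 and 46351 CPM with 4 ng. Neither passed with DESeq2 (adjusted p = 0.109 and 0.196), and Hba-a2 did not pass without replicate 1 (edgeR adjusted p = 0.0681).

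Folding factors of the endoplasmic reticulum that passed had higher levels with 4 ng. Of 14 tested, 6 rose (42.9%), 0 fell and 8 did not pass, with a median log2 difference of 0.28, where 5.04% of all tested genes rose. Pdia3, a disulfide isomerase that acts on glycoproteins, had 673, 779 and 786 CPM with 4 ng and 341, 436 and 440 CPM with 70 ng. Its groups did not overlap, and it rose by 0.86 ± 0.07 (SE, log2, edgeR adjusted p = 9.54e-06). Its exons overlap Catsper2 on the opposite strand. Hsp90b1, the chaperone GRP94, had 477, 404 and 452 CPM against 316, 258 and 283 CPM and rose by 0.62 ± 0.08 (SE, log2). Hspa5, the chaperone BiP, rose by 0.37 ± 0.07 (SE, log2), whereas Calr had a log2 difference of 0.24 ± 0.07 (SE) and did not pass (edgeR adjusted p = 0.0537). Without replicate 3, 4 rose and 0 fell.

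**Figure D3:**
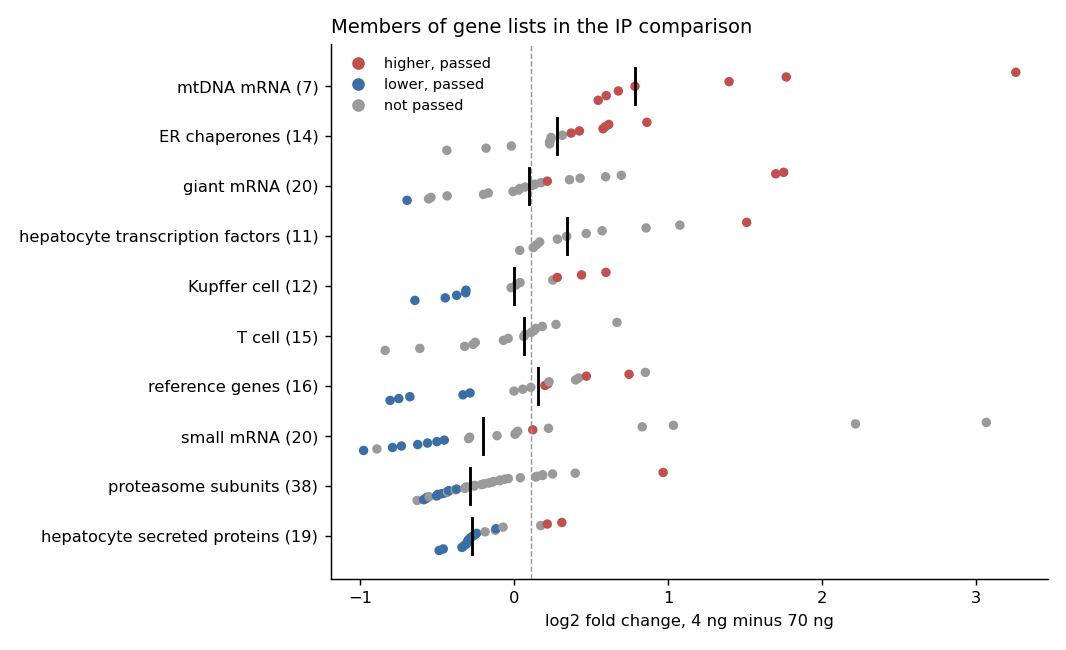
Log2 difference between 4 ng and 70 ng for the tested members of 10 gene lists, 1 point per gene, with the number tested in parentheses. Black bars are the median of each list, the dashed line is the median of all tested genes at 0.11, and colors show genes that passed the test as higher (red) or lower (blue). All 7 mitochondrial mRNAs lie above 0.5, while genes of the Kupffer cell list lie on both sides of 0.

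The Kupffer cell markers, the cell type with the most reads among the marker lists of immune cells, changed in both directions. Of 12 tested, 3 rose (25%) and 5 fell (41.7%), and the median was -0.0028. Of all tested genes, 5.04% rose and 4.87% fell. Clec4f, a receptor found on Kupffer cells, had 6357, 8485 and 8193 CPM with 4 ng and 6314, 8647 and 7533 CPM with 70 ng, a log2 difference of 0.013 ± 0.038 (SE) that did not pass. Folr2, a folate receptor of macrophages, had 274, 621 and 524 CPM against 461, 857 and 824 CPM and a log2 difference of -0.64 ± 0.07 (SE, edgeR adjusted p = 9.21e-05). Timd4, a receptor for phosphatidylserine on dying cells, had 247, 400 and 351 CPM against 143, 300 and 222 CPM and rose by 0.60 ± 0.10 (SE, log2). Without replicate 3, 2 rose and 5 fell.

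The 3 chains of complement C1q, which form 1 protein, did not move together. C1qa had 3647, 3454 and 3283 CPM with 4 ng and 2635, 2466 and 2441 CPM with 70 ng and rose by 0.44 ± 0.04 (SE, log2), with no overlap between groups. C1qb, which like C1qc was singled out after its values were seen, had 1911, 2774 and 2653 CPM against 2445, 3354 and 3134 CPM and a log2 difference of -0.31 ± 0.04 (SE). C1qc had a log2 difference of -0.018 ± 0.051 (SE) and did not pass. The difference between the chains was not tested.

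Other cell types showed little that passed. In the lists of T cells, NK cells, erythroid precursors, stellate cells and bile duct cells, 0 of 15, 9, 9, 10 and 5 tested members passed. Of 9 B cell genes 0 rose and 1 fell (11.1%), and of 10 neutrophil genes 0 rose and 1 fell (10%). Of 8 genes of monocytes and dendritic cells 1 rose and 1 fell (12.5% each). Of 12 endothelial genes 1 rose (8.33%) and 0 fell. That endothelial gene was Lyve1, a hyaluronan receptor, which had 2.05, 11.7 and 7.26 CPM with 4 ng and 0.179, 2.08 and 1.57 CPM with 70 ng. It did not pass without replicate 2 or 3 (edgeR adjusted p = 0.326 and 0.230).

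Some of the transcription factors tested passed. Ppara, a nuclear receptor that drives fatty acid oxidation, had 29.2, 28.1 and 30.6 CPM with 4 ng and 6.63, 10.2 and 15.1 CPM with 70 ng and rose by 1.51 ± 0.28 (SE, log2, edgeR adjusted p = 0.00359). It was the 1 of 11 hepatocyte factors that passed (9.09%), and the median of the 11 was 0.34. Of 15 factors of blood lineages, 3 rose (20%) and 1 fell (6.67%), where 5.04% of all tested genes rose and 4.87% fell. Zbtb16 had 23.6, 28.3 and 157 CPM against 8.46, 8.66 and 30.4 CPM and rose by 1.84 ± 0.21 (SE, log2), and Runx1 rose by 1.20 ± 0.26 (SE, log2). Irf8, a factor of macrophages and dendritic cells that was singled out after its values were seen, fell from 193, 256 and 238 CPM to 156, 179 and 186 CPM. Of 323 zinc finger Zfp genes tested, 10 rose and 2 fell, with a median of 0.33. The 10 are 3.10% of the Zfp genes, where 5.04% of all tested genes rose. Without replicate 3, 1 rose and 0 fell among the Zfp genes, and Runx1 and Irf8 did not pass (edgeR adjusted p = 0.118 and 0.0953). Irf8 did not pass without replicate 2 either (edgeR adjusted p = 0.0722).

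Genes often used as references did not hold a common level. Of 16 tested, 4 rose (25%) and 5 fell (31.25%), where 5.04% of all tested genes rose and 4.87% fell. Without replicate 1, 3 rose and 3 fell, and without replicate 3, 2 rose and 3 fell. Actb rose by 0.20 ± 0.05 (SE, log2), with 5478, 5845 and 5832 CPM against 4270, 5583 and 4923 CPM, but did not pass without replicate 1 or 3 (edgeR adjusted p = 0.159 and 0.192) or with DESeq2 size factors (adjusted p = 0.0649). Gapdh had between 0 and 8.86 CPM, and its reads are shared with many pseudogenes, so its log2 difference of 0.85 ± 1.02 (SE) says little. Eef1a1, an elongation factor named after its values were seen, had a log2 difference of -0.33 ± 0.05 (SE).

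Families of metabolic and transport genes passed in both directions. Of 66 cytochrome P450 genes tested, 3 rose and 7 fell, and of 254 solute carriers 9 rose and 14 fell, with medians of 0.06 and -0.03. The 7 are 10.6% of the P450 genes and the 14 are 5.51% of the solute carriers, where 4.87% of all tested genes fell. The 3 and the 9 that rose are 4.55% and 3.54%, where 5.04% of all tested genes rose. Without replicate 3, 2 and 4 rose and 2 and 5 fell. Of 25 collagens 1 rose and 1 fell (4% each), and of 12 immediate early genes 1 rose and 1 fell (8.33% each). Of 8 major urinary protein genes 1 rose (12.5%), of 17 cell cycle genes 1 rose (5.88%), and of 11 snoRNA host genes 1 fell (9.09%).

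Length and base composition went along with the direction over all protein-coding genes. The genes that rose had a median longest transcript of 4226 bases and a median GC content of 44.5%, and those that fell had 1881 bases and 53.9%. Among the 10250 protein-coding genes with at least 5 CPM, the median log2 difference was 0.33, 0.11, -0.03, -0.14 and -0.15 over quintiles of GC content from low to high. In the lowest quintile 342 of 2049 genes rose and 16 fell, and in the highest quintile 85 rose and 251 fell. By length, the medians were -0.25 for 348 genes of 0.5 to 1 kb, -0.14 for 1683 genes of 1 to 2 kb, 0.01 for 5809 genes of 2 to 5 kb, 0.18 for 2137 genes of 5 to 10 kb and 0.31 for 241 genes over 10 kb. Below 0.5 kb the median was -0.40 over 27 genes. Of the genes of 0.5 to 1 kb 24.1% fell, and of those of 1 to 2 kb 13.4%. The median transcript was 1100 bases for ribosomal proteins, 1895 for proteasome subunits and 1741 for hepatocyte secreted proteins. Of these 3 lists 22.4%, 28.9% and 68.4% fell. Whether the lists fell more often than other genes of like length and level was not tested. Across genes, which are not independent replicates, Spearman's rho of the log2 difference was -0.37 with GC content and 0.27 with length, and it was 0.27 with the length of the 3′ untranslated region and 0.13 with the coding length.

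Each of the 3 pairs gave like medians. The gap in the median between the lowest and highest quintile of GC was 0.48 over the 3 pairs and lay between 0.47 and 0.52 under the settings tried, replicate 3 as labelled included. GC and length each went along with the difference within classes of the other. Genes under 2 kb with 50% GC or more had a median of -0.25, with 30 of 1357 higher and 278 lower, whereas genes over 5 kb with less than 50% GC had a median of 0.25, with 221 of 1584 higher and 18 lower.

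**Figure D4:**
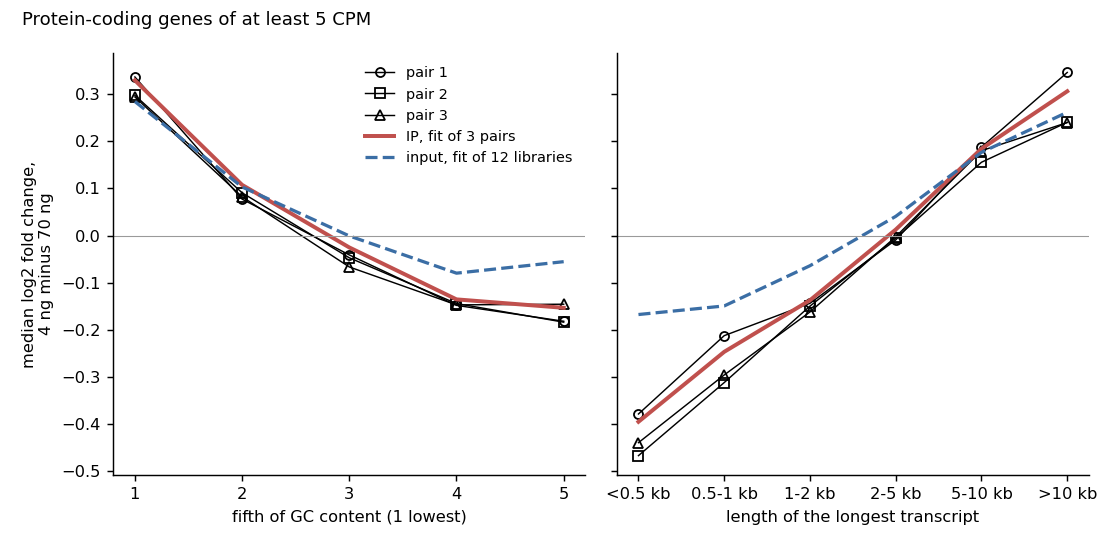
Median log2 difference between 4 ng and 70 ng (vertical axis) of protein-coding genes with at least 5 CPM, by quintile of GC content (left) and by length of the longest transcript (right). Thin lines are the log2 ratios of the 3 IP pairs, the red line the IP fit and the dashed line the input fit, and all fall with GC, with the 2 highest quintiles near each other, and rise with length.

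Single genes departed from the order by GC content or from that by length. Kmt2d, a histone methyltransferase with a transcript of 19823 bases, has a GC content of 58.4% and had 78.0, 197 and 248 CPM with 4 ng against 42.6, 44.8 and 51.4 CPM with 70 ng. It rose by 1.75 ± 0.21 (SE, log2, edgeR adjusted p = 0.00019), and its 4 ng libraries differed more among themselves than its 70 ng libraries. Plec, a cytoskeletal linker of 15455 bases and 61.3% GC, rose by 1.70 ± 0.21 (SE, log2). Kmt2d and Plec departed from the order by GC content and not from that by length. Dync1h1, the heavy chain of the dynein motor, which was named after its values were seen, had 102, 108 and 109 CPM against 132, 204 and 180 CPM and a log2 difference of -0.69 ± 0.12 (SE). Of the 20 genes of the list of very long mRNAs, 3 rose (15%) and 1 fell (5%). Their median of 0.09 was close to that of all tested genes, of which 5.04% rose and 4.87% fell. Of the 20 of very short mRNAs, 1 rose (5%) and 7 fell (35%), with a median of -0.20, and without replicate 3, 0 rose and 3 fell. Among these, Mt1, a metal-binding metallothionein, had 46.4, 69.7 and 110 CPM against 98.6, 134 and 196 CPM, a log2 difference of -0.98 ± 0.11 (SE), and Romo1, a mitochondrial membrane protein that overlaps Nfs1, one of -0.79 ± 0.14 (SE), which did not pass without replicate 3 (edgeR adjusted p = 0.0524).

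The protein-coding genes with the largest log2 differences among those with at least 5 CPM were of low level. Gm45753 had 11.98, 4.76 and 6.28 CPM with 4 ng and 0, 0.0336 and 0.738 CPM with 70 ng. Cgas, the sensor of cytosolic DNA, had 3.99, 8.89 and 10.8 CPM against 0.466, 1.04 and 0.193 CPM, with a log2 difference of 3.87 ± 0.88 (SE). Jrkl and Hyal1, a hyaluronidase, had log2 differences of 3.73 ± 0.84 and 2.81 ± 0.53 (SE). Kif15, a mitotic kinesin, and Tnfrsf14, a receptor of the tumor necrosis factor family, rose by 2.68 ± 0.74 and 2.63 ± 0.39 (SE, log2). Most of these genes had a few CPM or less in the 70 ng libraries, so that small changes in their reads move the fold. Without replicate 3, Cgas, Jrkl, Hyal1 and Kif15 did not pass (edgeR adjusted p = 0.0787 to 0.230), and without replicate 1, Gm45753 and Kif15 did not (edgeR adjusted p = 0.0745 and 0.0754).

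Among those with the largest falls, Ruvbl1, an ATPase of chromatin remodelers, had 4.16, 4.76 and 5.30 CPM with 4 ng and 15.2, 18.9 and 11.6 CPM with 70 ng, a log2 difference of -1.68 ± 0.38 (SE). Guca1a, a calcium sensor known from photoreceptors, had 16.0, 9.98 and 14.4 CPM against 29.9, 32.4 and 41.1 CPM. Gps1, a subunit of the COP9 signalosome, and Akr1b3, an aldose reductase, had log2 differences of -1.28 ± 0.22 and -1.26 ± 0.20 (SE). For all 4 the 3 libraries of one amount lay apart from those of the other.

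The 4 ng libraries detected more genes than the 70 ng libraries. They had at least 1 read for 17467, 18899 and 21161 genes, against 14430, 15213 and 15680 with 70 ng, a mean difference of 4068 ± 1266 (SD, n = 3 pairs, exact permutation p = 0.25). At the smallest total of 18031264 counts, the numbers were 17467, 18559 and 20299 against 14283, 15086 and 15546, so that the gap was also there at an equal total of counts. An equal total of counts is not an equal number of distinct molecules. The study tabulates duplication rates, and among IP libraries their mean was higher for the larger amount, though not in every replicate. Duplicate reads were not analysed here, so whether the gap holds at an equal number of distinct molecules was not tested. At 1 CPM or more the counts were much closer, with 13436, 14053 and 14139 genes against 13036, 13635 and 13861.

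Genes read in only one library of a pair followed the same direction. With at least 1 CPM in the 4 ng library, 577, 505 and 310 genes had no read in the 70 ng library of the same mouse, which is 4.29%, 3.59% and 2.19% of the genes at that level. The reverse held for 159, 119 and 49 genes, or 1.22%, 0.873% and 0.354%. In all 3 pairs, 5 genes were missed with 70 ng, which are Xlr4c, Ankrd42, Tnip3, Gm16200 and Gm12970, and 0 were missed with 4 ng. Over all tested genes, 100 had no read in any 70 ng library and 0 had none in any 4 ng library, and none of the 100 passed the test.

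The spread between the 3 libraries of an amount was wider at low levels with 70 ng, although both amounts came from the same mice. In the lowest quintile, a mean of 92 genes had no read in a 4 ng library and 972 in a 70 ng library. In the lowest quintile of mean CPM the median SD of log2(CPM + 0.5) over 3 libraries was 0.483 with 4 ng and 1.02 with 70 ng, and in the highest quintile it was 0.264 and 0.295. The SD with 4 ng was the larger for 20.4% of the genes in the lowest quintile and for 41.1% in the highest. The median log2 difference also depended on level, with 1.32 in the lowest quintile and -0.06 in the highest over all tested genes, and 2 genes of the lowest quintile passed.

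**Figure D5:**
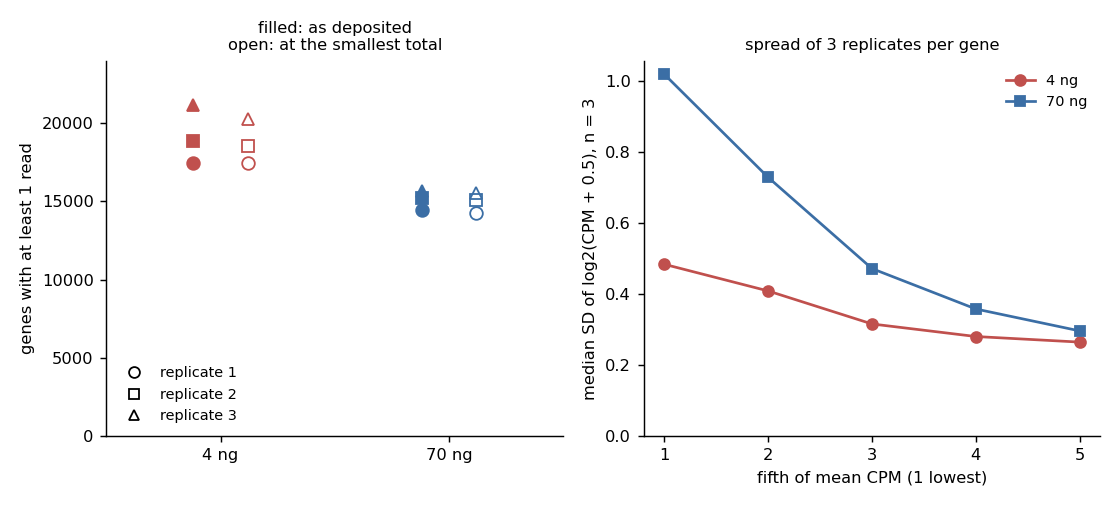
Left, genes with at least 1 read (vertical axis, number of genes) per IP library, as deposited (filled) and at the smallest total (open), with 17467 to 21161 genes for 4 ng above 14430 to 15680 for 70 ng. Right, median SD of log2(CPM + 0.5) over 3 replicates against the quintile of mean CPM, which is larger for 70 ng in each quintile.

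The input libraries, made from other RNA of the same mice with the same 2 protocols, showed like changes. In a fit of 12 libraries, 971 of 16644 genes (5.83%) passed in input, 541 higher (3.25%) and 430 lower (2.58%) with 4 ng, where DESeq2 size factors in the same test turned the split to 417 higher and 580 lower. Of the 772 genes that rose in IP, 757 had a positive difference in input and 334 passed there in the same direction, with a median of 0.51. Of the 745 that fell, 697 had a negative difference in input and 318 passed in the same direction, with a median of -0.34. The 7 mitochondrial mRNAs had a median of 0.88 in input. Gm24270 and Gm25911, shown above by sequence, rose there by 3.16 and 4.99 (log2), Uqcrq had a log2 difference of -0.91 and Rpl41 one of -0.99.

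A difference between the IP and the input change passed for 2 of 16644 genes (0.012%), Alb and Serpina1c, and 1192 genes had an unadjusted p under 0.05. Alb, the main plasma protein of hepatocytes, had 15080, 21450 and 22133 CPM with 4 ng and 17175, 22725 and 22334 CPM with 70 ng in IP, lower with 4 ng in 3 of 3 pairs. In input it had 131988, 146382 and 136326 CPM against 116499, 130444 and 124779 CPM, higher with 4 ng in 3 of 3 pairs. The log2 change was -0.13 in IP and 0.23 in input, a difference of -0.36 ± 0.04 (SE, edgeR adjusted p = 0.000278). Serpina1c, an alpha-1-antitrypsin gene with near-identical paralogs, had 550, 272 and 215 CPM against 646, 257 and 199 CPM in IP and 2262, 2091 and 1647 CPM against 1352, 1254 and 909 CPM in input. The difference of its log2 changes was -0.90 ± 0.09 (SE, edgeR adjusted p = 0.000278). Over the other settings, the adjusted p ran from 0.000159 to 0.99998 for Alb and from 0.000678 to 0.99998 for Serpina1c.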

How the data were processed

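RNA was sequenced from IP and input of 3 mice, and 12 TruSeq libraries of 42 were used, 6 of them the IP libraries. The authors trimmed reads with the FASTX Toolkit 0.0.13, aligned them to GRCm38 with TopHat 2.0.8 and deposited raw exon counts per Ensembl gene (47729 genes), with replicates kept apart. Which tool and strand setting gave these counts is not clear from the sources used here. The authors also deposited RPKM values, which hold reads for genes at 0 counts and were used here only to order list members by level. CPM was computed from the counts over the total of all genes. Annotation came from GENCODE on GRCm38 and matched 47310 genes, while 419 had none.

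Counts were tested with edgeR 4.0.16 (R 4.3.3, TMM, filterByExpr, glmQLFit, glmQLFTest) with the pair as block, and genes passed at an adjusted p (Benjamini-Hochberg) below 0.05. Same-numbered libraries come from the same mouse, and their deviations from the group means correlated at 0.56, 0.48 and 0.51, other pairs at -0.41 to 0.07. On simulated counts for 13784 genes, 50 of 100 changes of 2-fold and 80 of 100 of 4-fold were found, and 6 of 136 calls were unchanged genes. DESeq2 1.42.0 and other settings served as alternatives. Input and IP were compared in 1 fit of 12 libraries. Shares and gene numbers were compared by exact permutation over 3 pairs. Floors cover counting error only.

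Genes were named by a rule. It took the 10 protein-coding genes of at least 5 CPM with the largest rise and the 10 with the largest fall among those that passed in the same direction in 3 pairs, 5 and 5 of other biotypes, up to 4 members per list, the 5 passed genes with the highest mean CPM each way, the genes whose change differed between IP and input, and Gfi1, Rpl22, Gapdh, Actb and Alb. The text gives examples of these, a few are not reported here, and it says which other genes were singled out after their values were seen. The gene lists and the comparison were chosen with earlier results of these data known, so no list is independent evidence.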

Additional observations from a re-analysis of the deposited data

Results flagged for a closer look

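The change with 4 ng differed between IP and input for 2 genes by the test of that difference. For Alb the log2 change in IP minus that in input was -0.36, with lower CPM in 3 of 3 pairs in IP and higher CPM in 3 of 3 pairs in input. For Serpina1c it was -0.90, with higher CPM in 3 of 3 pairs in input and no common direction in IP. Both code for plasma proteins of hepatocytes. Serpina1c has near-identical paralogs, and the reads shared with them were not measured.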

How the results depend on the processing

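The number of genes that passed in IP, 1517, stayed within 1.5 times with DESeq2 size factors, other filters on low counts, thinning to the smallest total or without mitochondrial, globin and rRNA genes. The replicate block pairs the libraries of a mouse. With no replicate block, 6 genes passed in IP, 27 in input and 0 for the difference between IP and input, whereas the gap in GC stood at 0.48. Tested against a change of 1.5-fold, 65 genes passed in IP, and DESeq2 called 3639. With replicate 3 as labelled, 0 genes passed in IP, 0 list members, 1 gene in input and 0 for the difference, and the mean gap in missed genes was 271. With DESeq2 size factors, 8 genes passed for the difference. Counted from 5 reads, the gap in detected genes was 2434, and from 2 CPM that in missed genes was 98.7. Settings for the missed genes, the input test and the GC gap were added after seeing the data.

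Leaving out each replicate in turn gave 546 to 1529 genes in IP, 167 to 723 in input and 2 to 13 for the difference, 90 to 181 list members, gaps of 3362 to 4584 detected and 324 to 402 missed genes, -1.86 to -0.69 percentage points for protein-coding genes and a GC gap of 0.47 to 0.50. Without replicate 3, 541 of the 1517 genes passed. All 1517 kept their sign, which is little of a check. Of those that rose 770 of 772, and of those that fell 745 of 745, already had the same direction in all 3 pairs.
Signs turned mainly with replicate 3 as labelled, which sets an input library against an IP library. There the log2 difference was -0.78 for Actb, 0.85 for Alb, 0.60 for Apoa2, -0.92 for C1qa, -1.36 for Clec4f, 0.065 for Eef1a1, 0.35 for Fgb, 0.30 for Hp, 0.070 for Rpl22, -0.044 for Runx1, 0.99 for Serpina1c and -0.71 for Timd4, and the share of hepatocyte secreted proteins differed by 4.70 percentage points. Elsewhere the sign turned for genes near 0. With 1 replicate left out, C1qc ranged from -0.064 to 0.028, Clec4f from -0.038 to 0.055 and Serpina1c from -0.11 to 0.060, and Clec4f was at -0.018 with DESeq2 size factors or DESeq2.
Depth limits the low genes, since a count of 3 stands for 0.0816 to 0.166 CPM, and 3 pairs set the precision of all tests. With the pair as block, the p-values cover the spread of the difference between these pairs.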
